A study of Mus musculus with 6 samples.

Results

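The 38 genes described here encode the machinery that copies DNA and the regulators that carry a cell from G1 into S phase. They were taken by symbol from a list of such genes, and all 38 were found among the 15063 genes that the expression tables list. All 38 also passed the filter on low values that left 11085 genes for testing. The RNA came from mesenchymal stem cells (MSCs), stromal progenitors that adhere and divide in culture, grown from the bone marrow of mice aged 3 weeks. The CKO group holds 3 libraries, all at passage 5, of the genotype labelled CKO, the usual abbreviation of conditional knockout, in a series whose title names Mapk7. The WT group holds 3 libraries, of which WT libraries 1 and 3 were at passage 5 and WT library 2 at passage 7. No group received an agent beyond the culture medium, and the sources used here do not give the Cre driver, the floxed allele or the strain. Mapk7 encodes the kinase ERK5, and the study asked how it shifts MSCs between bone and fat formation.

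Replication starts in G1, when CDC6 and CDT1 load the MCM2-7 helicase onto origins. Cyclin E with CDK2 then drives entry into S phase, CDC45 and the GINS complex join MCM2-7 to form the active helicase, and polymerase alpha-primase lays down the primers that PCNA and its loader RFC hand to the replicative polymerases. Most of these genes are transcribed under E2F factors, which RB proteins restrain in resting cells, so their transcripts are abundant in dividing cells and scarce in cells that have left the cycle.

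Values are in RPKM, read counts scaled to gene length and to the library's total, so levels can be set side by side between genes. The recovered read totals ranged from 17351907 to 20689481 per library, and 3 reads in a gene of 1 kb correspond to 0.145 to 0.173 RPKM. Mapk7 itself had 5.59, 3.84 and 5.45 RPKM in CKO libraries 1 to 3, against 7.12, 6.76 and 9.07 RPKM in WT libraries 1 to 3. Its groups did not overlap, but the log2 difference of -0.54 (SE 0.227) did not pass the threshold (limma, adjusted p = 0.505). WT libraries 1 and 2 carry the same animal label in the sample descriptions. Against that label, the Y-linked gene Ddx3y had 19.1 RPKM in WT library 2 and 0.0357 RPKM in WT library 1, and Uty, Kdm5d and Eif2s3y showed the same contrast. Ddx3y had 15.3, 6.45 and 16.0 RPKM in CKO libraries 1 to 3 and 11.8 RPKM in WT library 3. WT library 1 alone was thus near 0 for these genes, and it is 1 of 2 WT libraries at passage 5. The fits used genotype only, so this imbalance between the groups was not modelled. The animal of WT library 3 is numbered differently in its description and its file header. Stromal markers were high in all 6 libraries, with a mean log2(RPKM + 1) over 14 genes of 5.86 to 6.27 in CKO and 6.40 to 6.52 in WT libraries. Macrophage transcripts were present as well: the mean over 22 markers was 3.58, 2.60 and 4.76 in CKO libraries 1 to 3, against 3.73, 2.97 and 4.98 in WT libraries 1 to 3. Endothelial, erythroid and lymphocyte markers had means of at most 0.534 in any library, and granulocyte markers of at most 1.26. These means rest on few genes, since 3 of 8 erythroid, 2 of 8 lymphocyte and 4 of 7 granulocyte markers were listed.

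No replication or G1/S gene passed the test of CKO against WT, and the feature that set their levels apart was a single library, WT library 2 at passage 7. In that library 36 of the 38 genes were below each of the other 5 libraries, an ordering that 36.8% of all tested genes shared. In all, 32 genes were at least 2-fold below the mean of the other 5 libraries there, against 17.3% of all tested genes, and 28 were at least 2-fold below even the lowest of the other 5, against 7.33%. The median fold by which the 38 genes were lower in WT library 2 was 4.39, whereas over all tested genes it was 1.16. Passage 7 is held by 1 library, so passage, culture and library cannot be told apart, and no test was made of this difference. In bulk RNA, fewer cells expressing a gene and less RNA per cell cannot be told apart either.

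**Figure D1:**
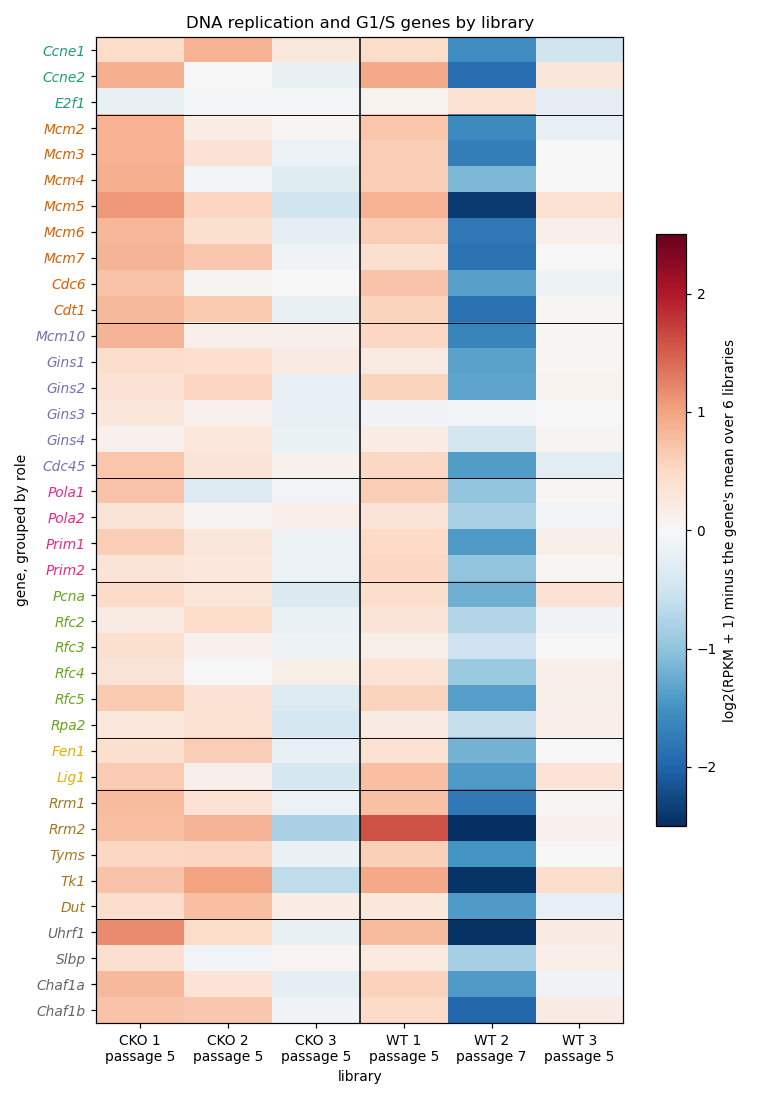
Level of each of the 38 genes in each library, as log2(RPKM + 1) minus the gene's mean over the 6 libraries, with genes in rows grouped by role from G1/S regulators at the top to chromatin and histone supply at the bottom, and CKO libraries left of WT libraries. Values beyond the ends of the colour scale take the end colour, and the WT 2 column is below the gene's mean in all rows but E2f1, with Gins3 close to its mean.

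Summed over the 38 genes, the levels were 740, 643 and 413 RPKM in CKO libraries 1 to 3, against 726, 176 and 510 RPKM in WT libraries 1 to 3. The mean log2(RPKM + 1) was 3.98, 3.73 and 3.24 in the CKO libraries, against 3.91, 2.03 and 3.44 in the WT libraries. Without WT library 2 the WT means lay inside the range of the CKO means. Among the 5 passage 5 libraries, CKO library 1 was highest for 22 genes, WT library 1 for 9 and CKO library 2 for 7. Over all tested genes, the same libraries were highest for 17.4%, 12.5% and 25.5%. Among the same 5, CKO library 3 was lowest for 26 genes, WT library 3 for 9 and CKO library 2 for 3. Over all tested genes, these were lowest for 22.1%, 17.2% and 35.1%. The macrophage marker mean was highest in CKO library 3 and WT library 3, the passage 5 libraries with the lowest replication gene means; its part in the result was not tested. Summed over the 22 markers, the levels were 463 to 3800 RPKM in CKO libraries and 891 to 2510 RPKM in WT libraries, and no marker was at 0 in every library. In WT library 2, which had the lowest replication gene mean of all, the macrophage marker mean of 2.97 lay within the range of the CKO libraries. Single markers were often low there, with 14 of 22 at least 2-fold below the mean of the other 5 libraries, against 17.3% of all tested genes. The median over the markers with reads there was 2.52-fold lower. Mrc1, the mannose receptor gene, was furthest below, at 25.8-fold. In the other direction, Cybb was above each of the other 5 libraries, at 2.17 times their mean, and Cd14 was at 1.1 times their mean. These genes are named after their values were seen.

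**Figure D2:**
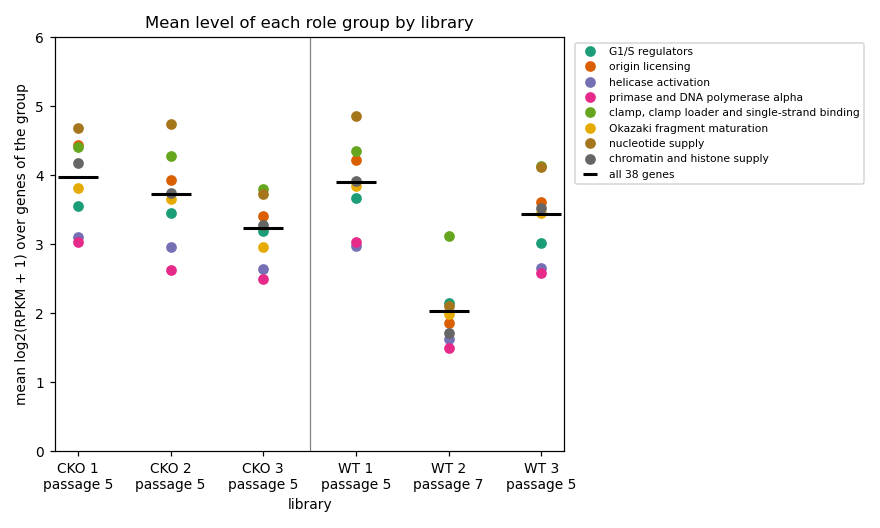
Mean log2(RPKM + 1) of each role group in each library, with CKO libraries left of WT libraries; points are role groups and the black bar is the mean over all 38 genes. The bar stands at 2.03 in WT library 2 and between 3.24 and 3.98 in the other 5 libraries, and every role group is lowest in WT library 2.

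Across genotypes, the limma test on log2(RPKM + 1) called 1 of 11085 genes over 6 libraries (0.00902%), Galnt16, an O-glycosylation enzyme that is named here after its values were seen. It called 0% of genes when WT library 2 was left out. None of the 38 genes was called in either fit, their lowest adjusted p being 0.542 and 1. At an unadjusted p under 0.05, limma found 0 of the 38 genes in both fits, against 9.74% of all genes over 6 libraries and 6.22% at passage 5. At an adjusted p under 0.05, voom on the recovered reads also called none of the 38 genes. The CKO and WT ranges overlapped for each of the 38 genes in both comparisons, while they did not overlap for 16.7% of all genes over 6 libraries and 20.7% at passage 5. The estimates changed side with the passage 7 library. Over 6 libraries 37 of 38 log2 differences (CKO minus WT) were above 0, with a median of 0.52 against 0.03 for all tested genes. Leaving out WT library 1 gave a median of 1.00, and leaving out CKO library 1 gave 0.35. At passage 5, 17 were above 0 and 21 below, with a median of -0.03, against -0.03 for all tested genes. It was 0.05 with median centring and 0.04 with quantile normalization, and it ran from -0.26 without WT library 3 to 0.18 without CKO library 3. The median SE of the 38 genes was 0.499 over 6 libraries and 0.325 at passage 5, against 0.281 and 0.277 for all tested genes.

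**Figure D3:**
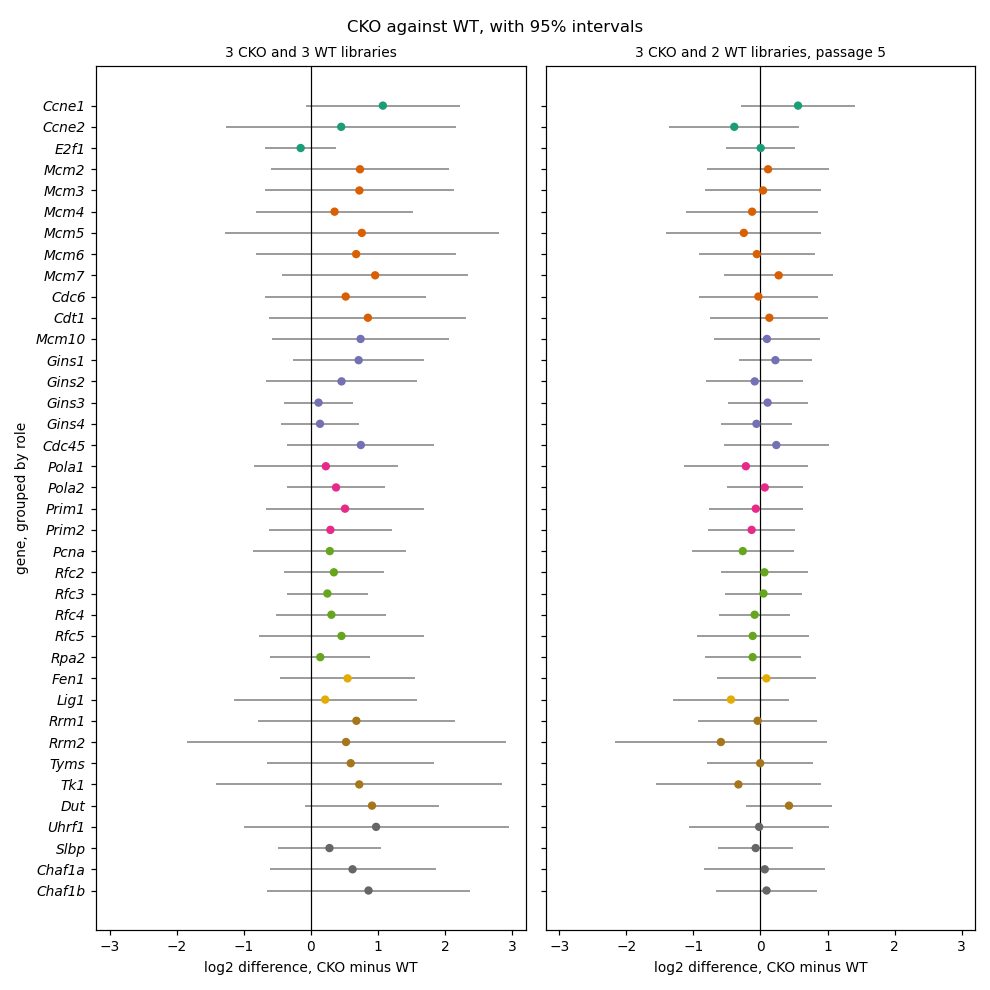
Log2 difference, CKO minus WT, with its 95% interval from limma for each gene, over 6 libraries on the left and at passage 5 on the right. All intervals include 0 in both panels, and the points shift from mostly above 0 on the left to both sides of 0 on the right.

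Among the G1/S regulators, Ccne1, which encodes cyclin E1, had the lowest p of the 38 genes over 6 libraries. It had 16.3, 22.0 and 14.0 RPKM in CKO libraries 1 to 3, against 16.2, 3.24 and 7.81 RPKM in WT libraries 1 to 3. WT library 1 lay within the CKO range and the other WT libraries below it. The log2 difference was 1.07 (SE 0.488, limma adjusted p = 0.542) over 6 libraries and 0.56 (SE 0.351, limma adjusted p = 1) at passage 5. Ccne2, which encodes cyclin E2, had 7.96, 3.81 and 3.27 RPKM in CKO libraries, against 8.43, 0.296 and 4.90 RPKM in WT libraries. WT library 1 was above the CKO range, WT library 3 inside it and WT library 2 far below it. WT library 2 held 19 Ccne2 reads, and the gene was 19.2-fold lower there than the mean of the other 5 libraries. The log2 difference of Ccne2 was 0.45 over 6 libraries and -0.39 at passage 5. E2f1, an activating E2F factor that is itself known as an E2F target, was the exception. It had 9.58, 10.9 and 10.9 RPKM in CKO libraries, against 11.8, 14.8 and 9.21 RPKM in WT libraries. WT libraries 1 and 2 were above the CKO range and WT library 3 below it. Its highest level was in WT library 2, with 951 reads, where the other regulators of this group were lowest. E2f1 also varied least over the passage 5 libraries, with a highest level 1.28 times the lowest.

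The wider set of RB, E2F and CDK regulators held 30 genes, of which 29 were tested. In WT library 2, 16 of the 30 were lowest, an ordering that 36.8% of all tested genes shared. Another 6 were highest there, and the share of all tested genes that were highest there was not worked out. None of these regulators was called in either fit. Their median log2 difference was 0.20 over 6 libraries and -0.13 at passage 5. The lowest p belonged to Ccnd1, which encodes cyclin D1. It had 21.2, 45.3 and 25.0 RPKM in CKO libraries, against 52.2, 134 and 112 RPKM in WT libraries. The groups did not overlap, and the log2 difference was -1.64 (SE 0.431, limma adjusted p = 0.303) over 6 libraries and -1.37 (SE 0.449, limma adjusted p = 0.672) at passage 5. Cdk4, its partner kinase gene, had 235, 299 and 217 RPKM in CKO libraries, against 200, 82.7 and 177 RPKM in WT libraries. Cdc25a, encoding a phosphatase that activates CDK2, had 8.79, 9.02 and 6.48 RPKM in CKO libraries, against 7.42, 2.34 and 5.01 RPKM in WT libraries. Some regulators were picked after their values were seen to show how E2f1's relatives behaved. E2f7 and E2f8, which encode repressor E2Fs, had 0.0316 and 0.0975 RPKM in WT library 2, from 4 and 8 reads, 63.6-fold and 32.4-fold below the mean of the other 5 libraries. The rest of the family was less far below that mean. E2f2, E2f3, E2f4, E2f5 and E2f6 were 3.26-fold, 1.75-fold, 1.46-fold, 1.69-fold and 1.59-fold lower in WT library 2. Ccna2, the S-phase cyclin A2 gene, was 41.1-fold lower there. In the opposite direction, Rbl2, which encodes the RB relative p130, had 19.9 RPKM in WT library 2, against 3.97 to 8.52 RPKM in CKO libraries and 7.82 and 9.15 RPKM in WT libraries 1 and 3. Cdkn1c, which encodes the CDK inhibitor p57, had 25.2 RPKM there, against 1.39 to 5.55 RPKM in CKO libraries and 1.28 and 2.74 RPKM in WT libraries 1 and 3. Cdkn1a, the p21 gene, had 197 RPKM in WT library 2, within the CKO range of 120 to 225 RPKM. It had 126 RPKM in each of WT libraries 1 and 3. No other RB or CDK inhibitor gene of the set was as far above the mean of the other 5 libraries in WT library 2 as Rbl2 or Cdkn1c. Rbl1 was 2.56-fold below the mean of the other 5 libraries in WT library 2. Cdkn1b, Cdkn2c, Cdkn2d and Cdkn2b were 1.5-fold, 1.38-fold, 1.14-fold and 1.08-fold below it. Rb1 was at 1.0 times that mean, Cdkn1a at 1.27 times and Cdkn2a at 1.34 times.

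**Figure D4:**
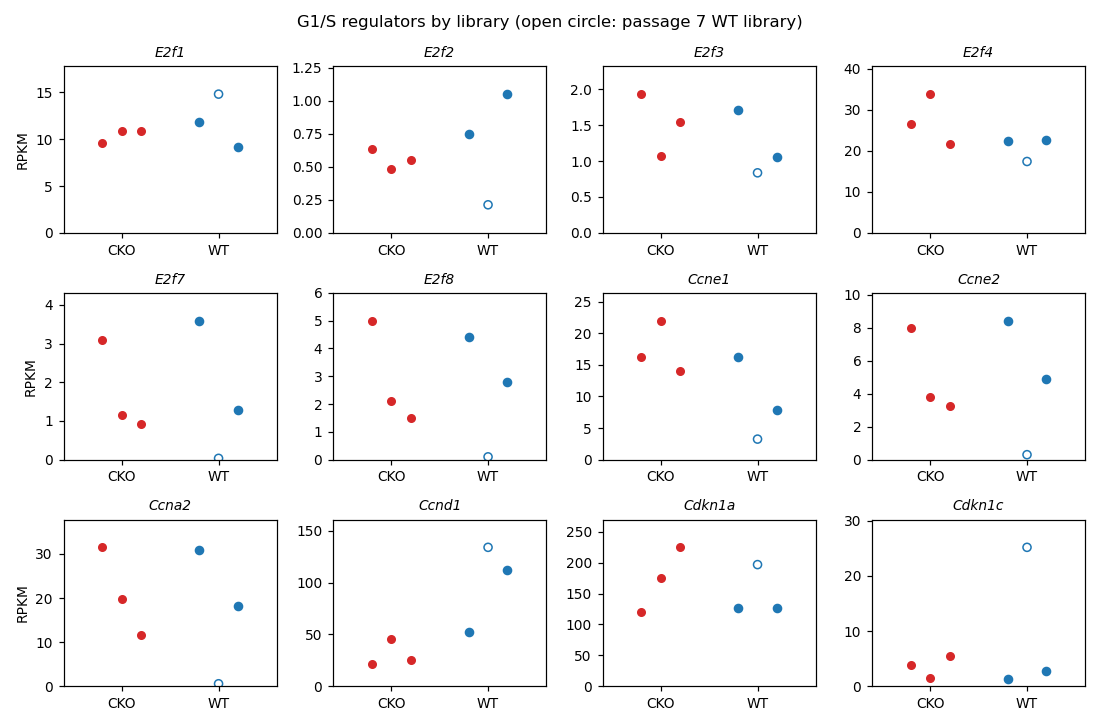
RPKM of 12 G1/S regulators in each library, with CKO on the left and WT on the right of each panel; each vertical axis starts at 0 and the open circle is WT library 2 at passage 7. The open circle is the lowest point for Ccne1, Ccne2, Ccna2, E2f2, E2f3, E2f4, E2f7 and E2f8 and the highest for E2f1, Ccnd1 and Cdkn1c.

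Origin licensing genes were lower in WT library 2 without exception, by a median of 5.48-fold over 8 genes. Mcm7, a helicase subunit and the most abundant of them, had 41.1, 36.3 and 21.2 RPKM in CKO libraries, against 30.1, 5.50 and 22.6 RPKM in WT libraries. CKO libraries 1 and 2 were above all WT libraries, while CKO library 3 was below WT libraries 1 and 3. The log2 difference was 0.96 over 6 libraries (limma adjusted p = 0.625) and 0.27 at passage 5 (limma adjusted p = 1). Within a library, the highest level among the MCM2-7 genes was 1.67, 2.94 and 2.57 times the lowest in CKO libraries. In WT libraries it was 1.49, 3.71 and 1.85 times the lowest. The sum of the MCM2-7 genes was 177, 125 and 81.7 RPKM in CKO libraries, against 146, 24.2 and 97.5 RPKM in WT libraries. Mcm5 was the subunit lowest in WT library 2, at 1.49 RPKM or 105 reads, against 8.24 to 26.7 RPKM in CKO libraries and 22.9 and 15.9 RPKM in WT libraries 1 and 3. Mcm2, Mcm3, Mcm4 and Mcm6 were 3.01-fold to 5.46-fold lower in WT library 2. Cdc6, the loader gene, had 4.28, 2.37 and 2.26 RPKM in CKO libraries, against 4.28, 0.262 and 1.96 RPKM in WT libraries. WT library 3 was also below the CKO range, by a small margin. Cdt1, which works with CDC6 and is destroyed once S phase starts, was 8.82-fold lower in WT library 2. At passage 5 the log2 differences of the 8 genes lay between -0.25 for Mcm5 and 0.27 for Mcm7.

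The helicase activation genes were 1.10-fold to 25.9-fold lower in WT library 2. Mcm10, needed to activate the loaded helicase, had 5.52, 2.95 and 2.91 RPKM in CKO libraries, against 4.14, 0.141 and 2.69 RPKM in WT libraries. Its 12 reads in WT library 2 made it the gene furthest below the other libraries, at 25.9-fold. Cdc45, which encodes a subunit of the active helicase, had 7.07, 5.22 and 4.41 RPKM in CKO libraries, against 6.21, 0.911 and 3.19 RPKM in WT libraries. WT library 1 lay inside the CKO range and the other WT libraries below it. Its log2 difference was 0.74 over 6 libraries and 0.24 at passage 5. The GINS genes encode the subunits of one complex, and their levels in WT library 2 differed from the other libraries by unequal amounts. Gins1 had 4.05, 4.03 and 3.30 RPKM in CKO libraries, against 3.38, 0.482 and 2.84 RPKM in WT libraries, so all CKO libraries but one were above the WT range. Gins4 had 19.7, 22.2 and 16.2 RPKM in CKO libraries, against 20.9, 13.0 and 19.3 RPKM in WT libraries, only 1.51-fold lower in WT library 2. Gins3 had 2.87, 2.42 and 1.77 RPKM in CKO libraries, against 2.01, 2.04 and 2.17 RPKM in WT libraries, and was the one gene besides E2f1 that was not lowest in WT library 2. The highest GINS level was 6.86 to 9.19 times the lowest in CKO libraries, against 27.0 times in WT library 2 and 8.88 to 10.7 times in the other WT libraries. Gins2 was 3.43-fold lower in WT library 2.

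Polymerase alpha-primase genes were 2.42-fold to 4.17-fold lower in WT library 2. Prim1, the catalytic primase subunit gene and the most abundant of the 4, had 13.6, 10.7 and 7.61 RPKM in CKO libraries, against 12.5, 2.59 and 9.55 RPKM in WT libraries. WT libraries 1 and 3 lay inside the CKO range and WT library 2 below it. Pola1, the polymerase subunit gene, was the least abundant in every library and had 5.19, 2.02 and 2.58 RPKM in CKO libraries, against 4.79, 0.892 and 2.85 RPKM in WT libraries. Here too WT library 2 alone lay below the CKO range. Pola2 and Prim2, which encode the accessory subunits, had mean levels of 5.25 and 5.58 RPKM in CKO libraries, against 4.06 and 4.81 RPKM in WT libraries.

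The sliding clamp, clamp loader and single-strand binding genes were the closest to the other libraries in WT library 2, with a median of 2.24-fold over 6 genes. Pcna, the clamp gene and the most abundant of all 38, had 97.3, 86.0 and 54.4 RPKM in CKO libraries, against 95.3, 29.2 and 90.1 RPKM in WT libraries. WT libraries 1 and 3 lay within the CKO range. The log2 difference was 0.28 over 6 libraries and -0.26 at passage 5 (SE 0.31 at passage 5). Rfc2, Rfc3 and Rpa2, encoding 2 loader subunits and a subunit of the RPA complex that coats single-stranded DNA, were 1.94-fold, 1.64-fold and 1.73-fold lower in WT library 2. Rfc4 and Rfc5 were 2.54-fold and 4.05-fold lower. Okazaki fragment genes followed the main pattern. Fen1, the flap endonuclease gene, had 13.1, 15.2 and 8.25 RPKM in CKO libraries, against 12.8, 3.66 and 9.54 RPKM in WT libraries. Again WT library 2 alone lay below the CKO range. Lig1, the DNA ligase I gene, had 12.9, 8.72 and 5.55 RPKM in CKO libraries, against 14.0, 2.35 and 10.3 RPKM in WT libraries. WT library 1 was above every CKO library and WT library 2 below every one. At passage 5 Lig1 had the lowest p among genes with a value below 0, at -0.44 (limma adjusted p = 1).

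Genes of nucleotide supply were lower in WT library 2 by a median of 5.79-fold over 5 genes. Rrm1, the large subunit of ribonucleotide reductase, had 61.7, 45.1 and 31.6 RPKM in CKO libraries, against 58.8, 9.49 and 35.8 RPKM in WT libraries. The passage 5 WT libraries lay inside the CKO range. Rrm2, the subunit whose abundance limits the enzyme in S phase, had 40.2, 43.5 and 12.9 RPKM in CKO libraries, against 72.8, 3.37 and 25.6 RPKM in WT libraries. WT libraries 1 and 2 were the highest and the lowest of all 6. It spanned 5.66-fold over the passage 5 libraries, the widest of the 38 genes, whose median was 1.97-fold against 1.85-fold for all tested genes. Tk1, the thymidine salvage kinase gene, had 19.1, 23.6 and 6.94 RPKM in CKO libraries, against 22.6, 1.24 and 15.6 RPKM in WT libraries, with 45 reads in WT library 2. Dut, which encodes the dUTPase that keeps uracil out of DNA, had 23.8, 29.9 and 19.9 RPKM in CKO libraries, against 21.0, 5.85 and 15.0 RPKM in WT libraries. WT libraries 2 and 3 were below every CKO library and WT library 1 inside their range. Its log2 difference was 0.91 over 6 libraries (limma adjusted p = 0.553) and 0.42 at passage 5 (limma adjusted p = 1). Tyms, which makes thymidylate, was 5.79-fold lower in WT library 2.

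Chromatin and histone supply genes had the highest median fold in WT library 2, at 7.52 over 4 genes. Uhrf1, which recruits DNMT1 to newly copied DNA, had 22.3, 13.1 and 8.06 RPKM in CKO libraries, against 16.8, 0.858 and 10.9 RPKM in WT libraries. The passage 5 WT libraries lay between the CKO values. Its 66 reads in WT library 2 put it 16.6-fold below the mean of the other 5. Slbp, which encodes the histone mRNA stem-loop binding protein and was the most abundant of the group, had 24.6, 17.1 and 18.8 RPKM in CKO libraries, against 21.6, 9.69 and 20.5 RPKM in WT libraries. WT libraries 1 and 3 were again inside the CKO range. Chaf1a and Chaf1b, subunit genes of the CAF-1 histone chaperone, were 4.41-fold and 10.6-fold lower in WT library 2.

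**Figure D5:**
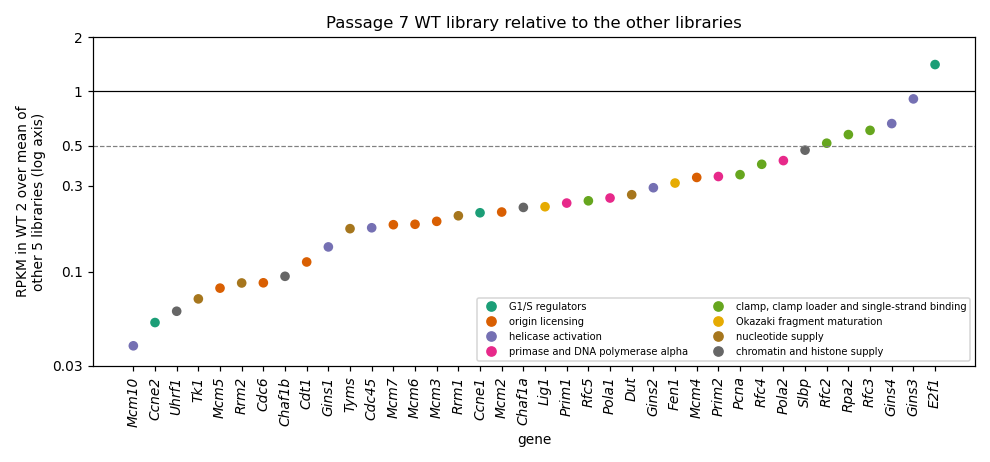
Ratio of RPKM in WT library 2 to the mean of the other 5 libraries for each gene, on a log axis, sorted from low to high and coloured by role; the solid line marks equal levels and the dashed line a 2-fold lower level. Mcm10 is at the left end at 0.0387 and E2f1 at the right end at 1.41, and 6 genes lie above the dashed line.

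Genes further below the others in WT library 2 tended to vary more over the passage 5 libraries (Spearman rho = 0.70 and Pearson r = 0.66 across 38 genes). The genes are not independent and share the same 6 libraries, and both measures draw on the passage 5 levels. The relation did not hold for every gene: Mcm10, furthest below at 25.9-fold, spanned 2.06-fold over the passage 5 libraries, against a median of 1.97-fold. No such relation was seen with the mean level over the other 5 libraries (Spearman rho = -0.0994). Other replication genes, 42 in all and 41 tested, followed the same course: 39 were lowest in WT library 2, and none was called in either fit. Of their log2 differences, 40 of 41 were above 0 over 6 libraries, with a median of 0.39, and 23 were above 0 at passage 5, with a median of 0.02. Orc5, an origin recognition complex gene, had the lowest p among them, at 9.17 ± 0.66 RPKM in CKO libraries against 5.97 ± 1.75 RPKM in WT libraries (SD, n = 3 each; limma adjusted p = 0.516). Mitosis genes were lower still. All 26 were lowest in WT library 2, by a median of 34.4-fold, and their mean log2(RPKM + 1) was 4.44, 3.97 and 3.26 in CKO libraries, against 4.43, 0.638 and 3.62 in WT libraries. Aurka, which encodes the mitotic kinase Aurora A, had the lowest p over 6 libraries (log2 difference 1.40, SE 0.936, limma adjusted p = 0.652).

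Promoter windows running from 250 bases before to 50 bases after the annotated start (RefSeq, GRCm38.p6) were used where that start lay within 100 bases of the gene's own 5′ end in the same assembly, which held for 26 of the 38 genes. The windows of 5 others (Mcm7, Cdc6, Pola1, E2f1 and Dut) began further inside the gene and were left out. The 26 were searched on both strands for 4 words of the E2F type, TTTCCCGC, TTTCGCGC, TTTGCCGC and TTTGGCGC. A match was present for 6 of 26 genes (23.1%), against 2.18% of all 22803 genes with such a window, 7 of 26 other replication genes (26.9%) and 1 of 21 mitosis genes (4.76%). The genes with a match were Mcm3, Mcm5, Mcm6, Gins3, Cdt1 and Rfc3. They were lower in WT library 2 by a median of 5.36-fold (range 1.10 to 12.4), against 4.54-fold (range 1.73 to 25.9) for the 20 genes without one, so the ranges overlapped. Gins3, which was not lowest in WT library 2, was among those with a match. E2f1, the other exception, was not searched because its window was left out. The CHR word TTTGAA, found in promoters of G2/M genes, was in 4 of 26 windows (15.4%), against 19.0% of all genes and 15 of 21 mitosis genes (71.4%). CCAAT boxes were in 16 of 26 (61.5%), against 38.7% of all genes. The TTTGAA and CCAAT words were searched on both strands, and no word is part of another. A match is a description of the letters, not evidence of binding. The windows of 3 MCM2-7 subunit genes with a match are shown because these genes were 5.26-fold to 12.4-fold lower in WT library 2. They are Mcm5 at chr8:75109259-75109558 (+ strand), Mcm6 at chr1:128359656-128359955 (- strand) and Mcm3 at chr1:20820263-20820562 (- strand), printed 5′ to 3′ on the gene's strand with the matches in capitals. In Mcm5 and in the first stretch of Mcm6 the capitals cover overlapping matches on both strands.
Mcm5: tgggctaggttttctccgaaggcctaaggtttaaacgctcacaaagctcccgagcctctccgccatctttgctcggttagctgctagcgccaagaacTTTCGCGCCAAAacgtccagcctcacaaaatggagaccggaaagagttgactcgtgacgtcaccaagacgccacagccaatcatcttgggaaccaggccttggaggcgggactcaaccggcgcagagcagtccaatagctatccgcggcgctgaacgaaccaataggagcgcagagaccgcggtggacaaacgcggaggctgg
Mcm6: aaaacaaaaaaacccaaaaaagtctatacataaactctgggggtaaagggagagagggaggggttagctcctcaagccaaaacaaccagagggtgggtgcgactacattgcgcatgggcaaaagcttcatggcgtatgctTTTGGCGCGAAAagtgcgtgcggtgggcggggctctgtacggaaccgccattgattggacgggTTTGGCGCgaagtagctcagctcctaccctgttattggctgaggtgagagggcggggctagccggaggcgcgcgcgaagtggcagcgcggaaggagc
Mcm3: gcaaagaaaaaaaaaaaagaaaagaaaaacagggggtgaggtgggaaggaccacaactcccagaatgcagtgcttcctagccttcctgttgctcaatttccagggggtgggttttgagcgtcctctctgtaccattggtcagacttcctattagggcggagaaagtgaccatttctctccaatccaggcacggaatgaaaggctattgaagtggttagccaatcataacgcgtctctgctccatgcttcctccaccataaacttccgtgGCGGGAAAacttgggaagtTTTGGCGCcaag

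The annotation may bear on some values. In GENCODE for GRCm38, a build other than the mm9 used by the authors, the exons of 12 of the 38 genes overlapped another gene. In 8 of them the overlap was at least 10% of all annotated exon bases. These were Fen1 (84.2%), Gins2 (67.3%), Chaf1a (52.5%), Ccne2 (17.4%), Rfc2 (15.1%), Rfc4 (12.7%), Mcm7 (12.6%) and Rfc5 (10.7%), with protein-coding partners on the opposite strand. For Gins2, Chaf1a and Rfc2 the annotated exon bases were 4097, 8854 and 6303. The gene lengths worked out from the values were 1038, 3308 and 1518 bases, so part of the overlap may lie outside the counted sequence. Fen1 and Mcm7 had more than 1 partner, and bases shared by partners were counted for each. Whether the counting used strand is not stated, so reads from an overlapping gene and its partner cannot be told apart.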

How the data were processed

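Gene expression was measured by stranded poly(A) RNA-seq in 6 libraries, 3 CKO and 3 WT. The authors deposited 1 RPKM value per gene and library; the file headers name no unit, which was worked out from the values, since 15056 of 15063 genes (99.95%) gave whole reads (within 0.01 read) with 1 total per library and 1 length per gene. The build is mm9, per the submitters' processing notes; for the aligner, the counting tool and the annotation, nothing is stated in the sources used here. Values were tested as log2(RPKM + 1) with limma 3.58.1 in R 4.3.3 (intensity trend, robust moderation, genotype only) in the 11085 genes with RPKM of at least 1 in at least 3 libraries. P-values are two-sided, Benjamini-Hochberg adjusted over those genes, with a threshold of 0.05. The passage 5 fit used the same genes without WT library 2. The log scale understates changes of low genes, and the floor at 3 reads covers counting error only, while limma's intervals cover the spread between libraries. The labels do not say whether libraries came from separate cultures, so the p-values cover only the variation among these 6, which may be technical. The test was tried on simulated data. The 38 genes and the other lists were chosen with earlier results of these data known. Library values are given for the most abundant gene of each role, the 5 genes with the lowest p in each direction and fit, and others picked after their values were seen. Alternatives were other scalings, filters and pseudocounts, voom on recovered reads, left-out libraries and a replicate block. A table of the whole series repeats the same values and was not used.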

Additional observations from a re-analysis of the deposited data

How the results depend on the processing

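None of the 38 genes was called under any alternative run, over 6 libraries or at passage 5, although 6 of them (Mcm10, Gins1, Gins3, Cdc6, Pola1 and Ccne2) were not tested with a minimum of 5 RPKM. The count over all genes was small and unstable. Over 6 libraries it was 1, and it was 2 with median centring, 2 with quantile normalization, 0 with no filter, 4 with the minimum of 5 RPKM, 0 with a pseudocount of 0.1, 0 with voom, 5 at an adjusted p of 0.1, 1080 at an unadjusted p of 0.05 and 50 with WT libraries 1 and 2 averaged. With the replicate block it was 0. Leaving out 1 library gave 0 to 44 calls, the most (44) without WT library 1, then 19 without CKO library 1; leaving out WT library 2 or 3, or CKO library 3, gave 0. At passage 5 the count was 0, and it was 1 with the minimum of 5 RPKM, 1 at an adjusted p of 0.1, 689 at an unadjusted p of 0.05 and 0 to 10 with 1 library left out, the most (10) without CKO library 1 and 5 without WT library 1. The cause was not tested. The median log2 difference of the 38 genes in WT library 2 from the mean of the other 5 was -1.68, and it was -2.02 with a pseudocount of 0.1 and -2.07 with voom, scales that compress low values less.

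Some log2 differences changed sign when 1 library was left out. Single genes were followed only for up to 5 with the lowest p in each direction and fit. Of all 38 genes, 37 were above 0 over 6 libraries and 17 without WT library 2, so genes not listed here changed sign too. Over 6 libraries the range was -0.440 to 0.640 for Lig1, -0.313 to 0.003 for E2f1, -0.391 to 1.041 for Ccne2, -0.590 to 1.449 for Rrm2, -0.264 to 0.573 for Pcna and -0.329 to 1.371 for Tk1. At passage 5 the range was -0.162 to 0.168 for E2f1, -1.327 to 0.146 for Rrm2, -0.155 to 0.626 for Cdc45 and -0.649 to 0.168 for Tk1. Over 6 libraries, Lig1 changed side without WT library 2 or CKO library 1 and the others without WT library 2; at passage 5, Rrm2 did so without WT library 1, Cdc45 without WT library 3, Tk1 without CKO library 3, and E2f1 when WT library 3 or CKO library 2 or 3 was left out. The replicate block gave -0.026 for E2f1 at passage 5. Same-numbered CKO and WT libraries had correlations of their deviations from the group means of 0.198, 0.014 and -0.019, so the numbers were not taken to pair the libraries. Averaging WT libraries 1 and 2 was not run at passage 5, where WT library 2 is absent. Depth limits genes such as Mcm10, with 12 reads in WT library 2.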
